A study of Mus musculus with 24 samples.

Results

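The 10 genes described here build and supply MHC class I molecules in mouse CD8+ T cells: H2-K1, H2-D1, H2-Q7, H2-Q9, B2m, Tap1, Tap2, Tapbp, Erap1 and Nlrc5. They were taken by symbol from the deposited tables, and all 10 were found among the 23366 genes listed there. RNA was sequenced from 24 libraries of 1000 cells each, in 8 groups of 3 libraries. At day 3 the groups were cKO cells with 10 nM dexamethasone (Dex, a synthetic glucocorticoid), cKO cells without addition (Ctrl), WT cells with Dex and WT Ctrl cells. The cKO cells were E8i-Cre+ Nr3c1 fl/fl and the WT cells E8i-Cre- Nr3c1 fl/fl, so both carried the floxed glucocorticoid receptor gene, and E8i-Cre is driven by an enhancer of Cd8a that is active in the CD8 lineage. At day 9 all cells were WT, and the groups were Dex+IL27, Dex, IL27 (25 ng/ml of the cytokine interleukin 27) and Ctrl. Every sample was labelled C57BL/6, with no age given, and the labels do not say whether the day 9 WT cells carried the floxed alleles. All cells had been sorted as naive CD8+ cells and activated on antibodies to CD3 and CD28. Day 3 cells had 3 days of activation, and day 9 cells had 3 days of activation, 3 days of rest in IL2 and 3 days of reactivation with the same additions.

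MHC class I molecules display peptides from inside the cell to CD8+ T cells. Each consists of a polymorphic heavy chain and the invariant light chain beta-2-microglobulin. Peptides made by the proteasome are pumped into the endoplasmic reticulum by the TAP transporter, trimmed by the aminopeptidase ERAP1 and loaded onto heavy chains with the help of tapasin. In lymphocytes, NLRC5 acts on the promoters of these genes as a transactivator through a composite element called SXY, and interferon gamma raises the whole pathway, in part through IRF1. T cells carry class I molecules themselves, and natural killer cells recognise cells that lose them.

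The start regions of some of the genes are shown so that their sequences can be compared, among them Erap1, which was not called in any day 9 comparison. Windows of H2-Q9, Tap2 and Nlrc5 were not at hand, and no link between sequence and response was tested. RefSeq windows of 250 bases before and 50 bases after the start (build GRCm38.p6) were at hand for 7 of the 10 genes: H2-K1, H2-D1, H2-Q7, B2m, Tap1, Tapbp and Erap1. The windows printed here are H2-K1 (chr17:34000298-34000597, minus strand), H2-D1 (chr17:35262844-35263143, plus strand), H2-Q7 (chr17:35438905-35439204, plus strand), B2m (chr2:122147437-122147736, plus strand) and Erap1 (chr13:74639603-74639902, plus strand), each 5′ to 3′ along the gene. Capitals mark matches, on either strand, to GAAANNGAA or GAANNGAAA (the interferon-stimulated response element), CCAAT (the Y box), TGACG (the X2 or CRE core) and GGGATTCCC (an NF-kB site).
H2-K1: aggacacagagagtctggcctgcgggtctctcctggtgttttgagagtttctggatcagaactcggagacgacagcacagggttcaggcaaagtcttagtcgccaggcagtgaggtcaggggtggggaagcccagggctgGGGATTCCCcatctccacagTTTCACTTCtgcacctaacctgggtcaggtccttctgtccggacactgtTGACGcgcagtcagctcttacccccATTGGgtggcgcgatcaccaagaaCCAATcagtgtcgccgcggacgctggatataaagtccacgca
H2-D1: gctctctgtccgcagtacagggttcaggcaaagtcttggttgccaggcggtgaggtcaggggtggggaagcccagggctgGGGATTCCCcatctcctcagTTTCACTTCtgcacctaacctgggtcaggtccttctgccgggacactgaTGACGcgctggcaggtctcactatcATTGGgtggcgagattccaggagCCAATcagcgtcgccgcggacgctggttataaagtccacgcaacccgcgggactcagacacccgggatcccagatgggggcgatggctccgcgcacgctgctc
H2-Q7: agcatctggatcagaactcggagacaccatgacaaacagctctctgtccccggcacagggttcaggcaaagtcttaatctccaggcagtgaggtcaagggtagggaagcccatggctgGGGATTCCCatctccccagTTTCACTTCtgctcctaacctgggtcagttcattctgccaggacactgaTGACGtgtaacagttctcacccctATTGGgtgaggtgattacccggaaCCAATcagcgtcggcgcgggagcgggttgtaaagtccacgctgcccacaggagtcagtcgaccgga
B2m: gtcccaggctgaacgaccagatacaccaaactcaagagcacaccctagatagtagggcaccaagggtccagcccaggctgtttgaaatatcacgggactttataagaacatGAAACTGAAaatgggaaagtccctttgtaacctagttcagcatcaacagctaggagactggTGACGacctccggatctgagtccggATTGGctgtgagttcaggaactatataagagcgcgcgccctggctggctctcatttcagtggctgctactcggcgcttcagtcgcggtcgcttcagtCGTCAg
Erap1: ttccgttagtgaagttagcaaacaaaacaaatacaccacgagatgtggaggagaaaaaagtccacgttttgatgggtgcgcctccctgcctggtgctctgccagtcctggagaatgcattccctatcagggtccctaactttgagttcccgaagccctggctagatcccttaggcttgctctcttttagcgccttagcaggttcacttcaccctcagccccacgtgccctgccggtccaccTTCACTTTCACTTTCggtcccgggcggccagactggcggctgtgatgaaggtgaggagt

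The 3 heavy chain windows held GGGATTCCC, GAANNGAAA on the reverse strand, TGACG and CCAAT in both directions, in the same order along the gene. Both GGGATTCCC and the GAANNGAAA spelling were added to the search after these sequences were seen. GGGATTCCC was present in 0.37% and GAANNGAAA in 7.57% of all 27018 RefSeq windows of that length. The B2m window held GAAANNGAA, TGACG and CCAAT but not GGGATTCCC. Of the 7 windows, 6 held CCAAT, which is found in 37.9% of all windows, and Erap1 was the exception. TGACG was in 5 of the 7 windows (H2-K1, H2-D1, H2-Q7, B2m and Tap1) and in 21% of all windows. The Erap1 window held neither of them and had 2 overlapping matches to GAAANNGAA, a spelling found in 8.58% of all windows. No match was found in the 7 windows for TTCNNNGAA (the STAT element GAS, 8.47% of all windows), for ACANNNTGT (the core of the glucocorticoid response element, 6.91%) or for GGGANTTCC (another NF-kB spelling, 1.7%). These matches describe letters in a window and do not show that a factor binds there.

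Library totals ranged over 14221900 to 19018400 estimated counts, and every class I member had at least 1206 counts in each library, so all 10 passed the low-count filter on both days. T cell markers were high in all 24 libraries, Cd8a between 212 and 440 CPM (normalised counts, scaled to library size). Of the markers of other cells, Ms4a1, Lyz2 and Ncr1 were each at 0 in 22 libraries, and others varied with treatment. Summed levels of the 4 B cell markers, nearly all of it Ebf1, were 18.1 to 18.5 CPM in Dex+IL27, 8.09 to 13.0 CPM in Dex, 19.7 to 27.1 CPM in IL27 and 7.04 to 9.93 CPM in Ctrl cells at day 9. The 2 CD4 lineage markers, mostly Zbtb7b, summed to 12.4 to 14.4 CPM in Dex+IL27, 12.6 to 15.3 CPM in Dex, 18.3 to 20.5 CPM in IL27 and 6.28 to 7.68 CPM in Ctrl cells. The 5 myeloid and dendritic markers found summed to 2.40 to 2.94 CPM in Dex+IL27, 1.40 to 2.40 CPM in Dex, 2.94 to 5.75 CPM in IL27 and 0.989 to 2.27 CPM in Ctrl cells. The part of these markers in the results was not tested. The deleted gene Nr3c1 averaged 7.57 CPM in cKO Ctrl cells and 16.8 CPM in WT Ctrl cells, a fall of 1.14 ± 0.15 on the log2 scale (SE). Tsc22d3, a direct glucocorticoid receptor target, averaged 191 CPM in WT Dex cells and 58.4 CPM in WT Ctrl cells at day 3. The share of counts from Rn45s, the ribosomal RNA precursor, averaged 16.04% in Dex+IL27, 14.57% in Dex, 14.1% in IL27 and 9.113% in Ctrl cells at day 9; no call of a class I member changed when Rn45s was left out. One library stood apart among the IL27 cells: replicate 1 had 117 CPM of Irf1, against 59.6 to 65.5 CPM in the other 2. In bulk libraries, a change in the number of cells that express a gene and a change in RNA per cell cannot be told apart. Nothing in the labels ties the replicates to separate mice or cultures, and the p-values therefore measure only the spread between these libraries, which may be technical.

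Levels are comparable between genes only per transcript length, as FPKM. B2m, the light chain shared by all classical and most nonclassical heavy chains, was the most abundant member in each of the 8 groups, from 2195 FPKM in the lowest day 9 Ctrl library to 3387 FPKM in the highest Dex+IL27 library. The classical heavy chains H2-D1 and H2-K1 came next, between 972 and 1969 FPKM over all libraries, and their libraries overlapped in 7 of the 8 groups. Erap1, at 19.0 to 25.9 FPKM, and the regulator Nlrc5, at 9.85 to 17.2 FPKM, were the lowest in every group. The 5 other members lay between 49.8 and 247 FPKM. The nonclassical heavy chain H2-Q9 changed its place most: it held rank 8 in day 9 Ctrl cells, below Tap2 without overlap, and rank 4 or 5 in the other 7 groups.

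At day 9, most of the 10 members were higher with Dex. Both classical heavy chains, both H2-Q members, B2m, Tap1, Tapbp and Nlrc5 were higher in Dex than in Ctrl cells, between 1.22-fold and 2.44-fold. Tap2 and Erap1 did not pass the test. By the quasi-likelihood test of edgeR, with p-values adjusted over 12320 genes and called below 0.05, 8 of the 10 members were higher and 0 lower. Of all genes tested, 55.6% were called, 28.2% as higher and 27.4% as lower. Adjusted p-values in all comparisons of these genes are from this test. The median log2 fold change of the 10 members was 0.47, and that of all genes tested was 0.03.

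H2-K1, which encodes the classical heavy chain H-2K, had 2782, 2595 and 2651 CPM in the Dex libraries, against 1600, 1732 and 1615 CPM in the Ctrl libraries. All 3 Dex libraries lay above all 3 Ctrl libraries. The log2 fold change was 0.71 ± 0.06 (SE, adjusted p = 1.17e-07). The other classical gene, H2-D1, moved by nearly the same amount, 0.70 ± 0.05 (adjusted p = 6.58e-08), with 2903 to 3192 CPM in Dex and 1814 to 1917 CPM in Ctrl cells.

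H2-Q9, one of the Qa-2 heavy chains of the Q region, had 247, 180 and 179 CPM with Dex, against 81.6, 92.9 and 75.7 CPM in Ctrl cells. Its log2 fold change of 1.29 ± 0.14 (adjusted p = 1.79e-06) was the highest among the 10 members, and Dex replicate 1 lay above the other 2. H2-Q7, another Qa-2 heavy chain, rose less, by 0.28 ± 0.07 (adjusted p = 0.00401), with 178 to 183 CPM in Dex and 141 to 156 CPM in Ctrl cells. Copies of the Q region can share reads: of the 38-base stretches in annotated H2-Q7 transcripts (GENCODE M21, GRCm38), 33.3% also occur in other genes, 17.9% in H2-Q10 and 12.7% in H2-Q5. H2-Q9 is not listed in that annotation, so stretches it shares with H2-Q7 or the other genes were not counted. The share of 33.3% can therefore be too low, and how far H2-Q7 and H2-Q9 were measured apart is not known. The sum over the 9 H2-Q rows in the tables does not depend on how reads are divided among those rows. With Dex it was higher by 0.63 ± 0.06 (adjusted p = 1.25e-06), with 747 to 833 CPM in Dex and 495 to 536 CPM in Ctrl cells. Reads shared with the classical genes could still enter the sum. Of the 38-base stretches in H2-K1, 7.86% also occur in H2-D1 and 7.41% in H2-Q10. Of those in H2-D1, 10% also occur in H2-K1 and 7.26% in H2-Q1.

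B2m, which has no 38-base stretch in common with another gene of that annotation, had 2858, 2789 and 2838 CPM with Dex, against 1930, 1996 and 1883 CPM in Ctrl cells. These groups were far apart, and the log2 fold change was 0.56 ± 0.05 (adjusted p = 3.32e-07). Per length, the ratio of both classical heavy chains together to B2m was 1.06, 0.999 and 1.01 in Dex libraries and 0.923, 0.92 and 0.923 in Ctrl libraries. The libraries of the 2 groups did not overlap in this ratio. It was 1.01, 1.01 and 0.985 in IL27 and 1.14, 1.08 and 1.12 in Dex+IL27 libraries, all above Ctrl. At day 3 it was 1.01, 0.977 and 0.956 in WT Dex and 0.889, 0.906 and 0.855 in WT Ctrl libraries, also without overlap. The cKO Dex libraries (0.937, 0.906 and 0.95) overlapped the cKO Ctrl libraries (0.933, 0.953 and 0.856). No test was run on the ratio.

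**Figure D1:**
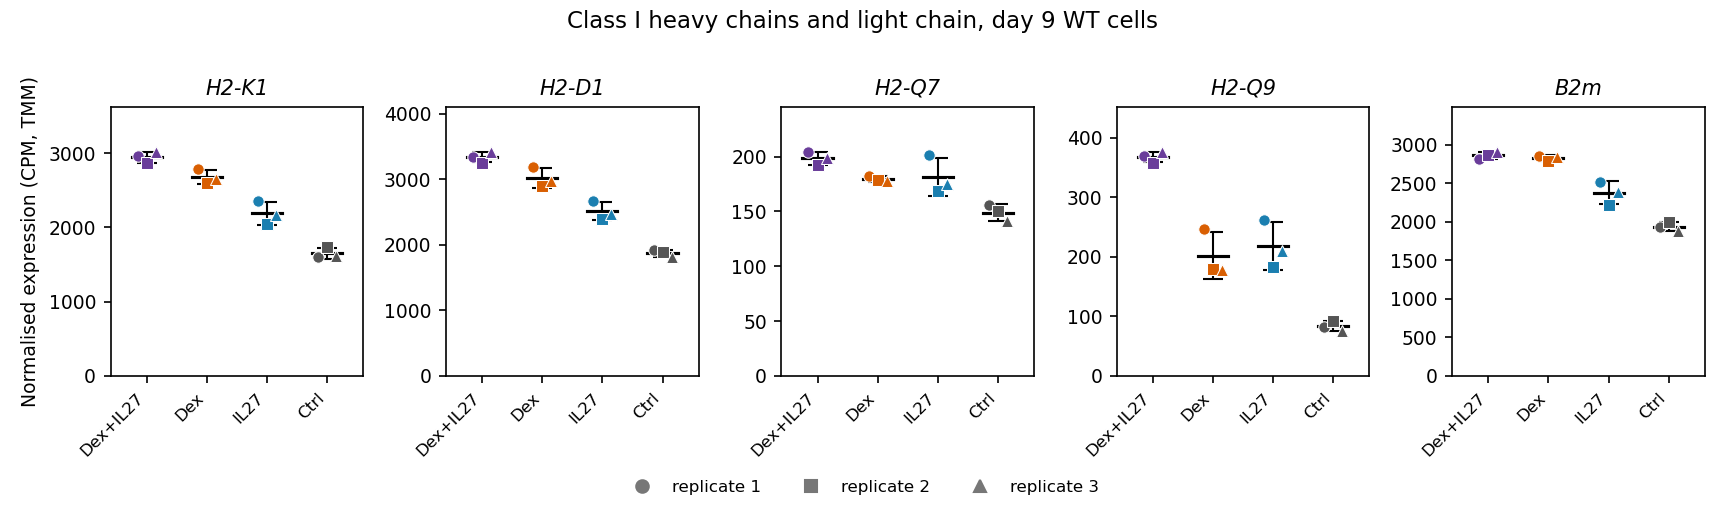
Normalised expression (CPM after TMM scaling) of the 4 heavy chain genes and B2m in each day 9 library, with group means and SD (n = 3). Ctrl libraries lie lowest for every gene, and H2-Q9 shows the widest separation, from 75.7 to 92.9 CPM in Ctrl cells and from 358 to 376 CPM in Dex+IL27 cells.

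In the peptide supply arm, Tap1 and Tapbp were called with Dex and Tap2 and Erap1 were not, and no test compared these genes with each other. Tap1, one subunit of the TAP transporter, had 388, 340 and 350 CPM with Dex, against 290, 309 and 275 CPM in Ctrl cells, a log2 fold change of 0.31 ± 0.10 (adjusted p = 0.0125). That call was lost without Dex replicate 1 (0.26, adjusted p = 0.0606) or without Ctrl replicate 3 (0.27, adjusted p = 0.0603). Tap2, the partner subunit, had 216, 200 and 206 CPM with Dex, against 183, 199 and 183 CPM in Ctrl cells, and its log2 fold change of 0.15 ± 0.08 did not pass the test (95% interval -0.003 to 0.307, adjusted p = 0.116). Tapbp, which encodes tapasin, the chaperone that holds empty class I molecules at TAP, rose by 0.38 ± 0.09 (adjusted p = 0.00254).

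Erap1, the trimming aminopeptidase, had 96.9, 91.7 and 92.5 CPM with Dex, against 85.8, 104 and 90.9 CPM in Ctrl cells. The groups overlapped, and the log2 fold change was 0.01 ± 0.08 (adjusted p = 0.889). Nlrc5, the class I transactivator, had 118, 108 and 114 CPM with Dex, against 75.8, 81.1 and 68.4 CPM in Ctrl cells, without overlap. It rose by 0.60 ± 0.09 (adjusted p = 6.47e-05), about as much as B2m.

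IL27 alone, set against the same Ctrl libraries, also raised 8 of the 10 members and lowered 0, where 57.4% of all genes were called, 29.3% as higher and 28.1% as lower. The comparisons of Dex, IL27 and Dex+IL27 with Ctrl share the 3 Ctrl libraries and are not independent. The median log2 fold change of the members was 0.31, and that of all genes 0.04. H2-K1 had 2352, 2049 and 2163 CPM with IL27, against 1600, 1732 and 1615 CPM in Ctrl cells, a log2 fold change of 0.42 ± 0.06 (adjusted p = 1.51e-05). H2-D1 rose by 0.44 ± 0.05 and B2m by 0.31 ± 0.05 (adjusted p = 5.29e-06 and 8.49e-05). H2-Q9 again rose most, by 1.40 ± 0.14 (adjusted p = 7.3e-07), with 262, 184 and 209 CPM in IL27 libraries. H2-Q7 rose by 0.30 ± 0.07 (adjusted p = 0.00238), and the 9 H2-Q rows together by 0.89 ± 0.06 (adjusted p = 5.35e-08).

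Both TAP genes were called with IL27. Tap1 had 488, 370 and 371 CPM, against 290, 309 and 275 CPM in Ctrl cells, a log2 fold change of 0.51 ± 0.10 (adjusted p = 0.000395). Tap2 rose by 0.21 ± 0.08 (adjusted p = 0.0355) and Tapbp by 0.25 ± 0.09 (adjusted p = 0.0268). IL27 replicate 1, the library that stood apart for Irf1, was the highest of the 3 for both. Without it Tap2 was at 0.14 (adjusted p = 0.133) and Tapbp at 0.13 (adjusted p = 0.145), and 6 members were called. Leaving out Ctrl replicate 1 or 3 also ended both calls (adjusted p between 0.0955 and 0.116). Nlrc5, with 91.4, 77.0 and 79.7 CPM in IL27 libraries, overlapped Ctrl cells and did not pass the test (0.16 ± 0.09, adjusted p = 0.171). Erap1 did not pass either (-0.11 ± 0.08, adjusted p = 0.245).

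**Figure D2:**
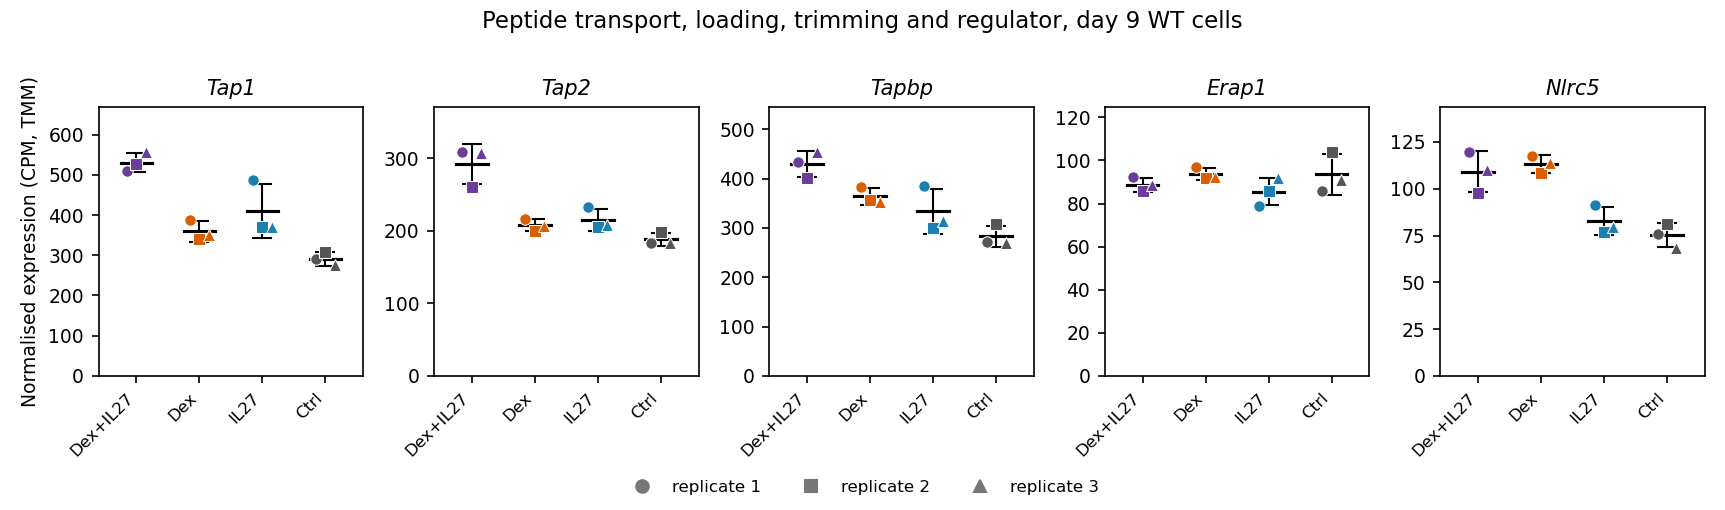
Normalised expression (CPM after TMM scaling) of the TAP subunits, tapasin, ERAP1 and NLRC5 genes in each day 9 library, with group means and SD (n = 3). Tap1 and Tap2 are highest in the Dex+IL27 libraries, Nlrc5 is high in both groups that had Dex, and the Erap1 libraries of all 4 groups overlap.

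With Dex and IL27 together, 9 of the 10 members were higher than in Ctrl cells and 0 lower, where 66.9% of all genes were called, 34.2% as higher and 32.6% as lower. The median log2 fold change was 0.66 for the members and 0.05 for all genes. When libraries were scaled by their totals alone, the median of all genes became -0.07, and the same number of members was called. H2-Q9 reached 369, 358 and 376 CPM, against 81.6, 92.9 and 75.7 CPM in Ctrl cells, a log2 fold change of 2.18 ± 0.14 (adjusted p = 4.48e-09). The 9 H2-Q rows together rose less, by 1.21 ± 0.07 (adjusted p = 9.33e-10). H2-Q9 made up 32.3%, 30.3% and 33% of that sum in Dex+IL27 and 15.2%, 18.5% and 15.3% in Ctrl libraries. The share of H2-Q7 was 17.9%, 16.2% and 17.4% in Dex+IL27 and 29.1%, 29.8% and 28.5% in Ctrl libraries. Whether reads were divided differently among the copies was not tested. H2-K1 reached 2959, 2866 and 3015 CPM and H2-D1 3350, 3258 and 3418 CPM, with log2 fold changes of 0.88 ± 0.06 and 0.87 ± 0.05 (adjusted p = 5.03e-09 and 2.77e-09). B2m, at 2817, 2868 and 2906 CPM, was higher by 0.60 ± 0.05 (adjusted p = 5.98e-08).

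The transporter genes stood highest with both agents. Tap1 had 509, 526 and 557 CPM in the Dex+IL27 libraries, a log2 fold change of 0.90 ± 0.10 over Ctrl cells (adjusted p = 9.63e-07). Tap2 had 309, 260.5 and 308 CPM, which is 0.67 ± 0.08 over Ctrl (adjusted p = 2.39e-06), and did not overlap the Dex, the IL27 or the Ctrl libraries. Tapbp rose by 0.64 ± 0.09 and Nlrc5 by 0.58 ± 0.09 (adjusted p = 1.62e-05 and 5.95e-05). Erap1 was the 1 member that did not pass the test (-0.04 ± 0.08, 95% interval -0.194 to 0.122, adjusted p = 0.709).

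Set against Dex alone, the Dex+IL27 libraries were higher for 6 of the 10 members and lower for 0, where 32% of all genes were called, 14.9% as higher and 17.1% as lower. Of the genes called, 46.5% were higher, and 34.6% when libraries were scaled by totals only. The calls of Tap1, Tap2 and H2-Q9 held in all 22 alternatives. Tap1 was higher by 0.59 ± 0.10 (adjusted p = 0.000437), Tap2 by 0.52 ± 0.08 (adjusted p = 0.000234) and H2-Q9 by 0.89 ± 0.13 (adjusted p = 0.000229). Summed, the 9 H2-Q rows were higher by 0.59 ± 0.06 (adjusted p = 1.9e-05), less than H2-Q9 alone. H2-K1, H2-D1 and Tapbp were higher by 0.17 ± 0.06, 0.17 ± 0.05 and 0.26 ± 0.09, with adjusted p of 0.0372, 0.0231 and 0.0366. All 3 calls were lost, leaving 3 members called, without Dex replicate 2 or 3 or without Dex+IL27 replicate 1 or 3, and under scaling by library totals, where H2-K1 was at 0.10 (adjusted p = 0.157). B2m, Nlrc5, H2-Q7 and Erap1 did not pass the test; the differences of B2m and Nlrc5 were small (0.04 ± 0.05, 95% interval -0.054 to 0.142, and -0.03 ± 0.09, 95% interval -0.207 to 0.155).

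Set against IL27 alone, Dex+IL27 was higher for 8 of the 10 members and lower for 0, where 26.1% of all genes were called, 11.7% as higher and 14.3% as lower. Of the genes called, 45% were higher, and 33.5% under scaling by totals. H2-K1 was higher by 0.45 ± 0.06, H2-D1 by 0.43 ± 0.05 and B2m by 0.29 ± 0.05 (adjusted p = 7e-05, 5.6e-05 and 0.00075). Nlrc5 was higher by 0.42 ± 0.09 (adjusted p = 0.00407), with 120, 98.0 and 110 CPM in Dex+IL27 and 91.4, 77.0 and 79.7 CPM in IL27 libraries. Tap1, Tap2, Tapbp and H2-Q9 were also higher, by 0.40, 0.47, 0.39 and 0.77. Summed, the 9 H2-Q rows were higher by 0.32 ± 0.06 (adjusted p = 0.00216), less than H2-Q9 alone. H2-Q7 and Erap1 did not pass (adjusted p = 0.141 and 0.522).

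Whether the agents add up was tested as an interaction, the Dex difference with IL27 present minus the Dex difference without it, on the log2 scale. It passed for 4 of the 10 members, where 28.5% of all genes were called, 13.7% with a positive and 14.7% with a negative value. H2-K1, H2-D1 and B2m fell short of the sum of the single differences, by -0.26 ± 0.08, -0.27 ± 0.07 and -0.27 ± 0.07 (adjusted p = 0.0258, 0.0146 and 0.0115). For H2-K1 the combined difference was 0.88, and the single differences summed to 1.13. Tap2 exceeded the sum, with 0.67 for both agents and 0.36 for the sum, an interaction of 0.31 ± 0.11 (adjusted p = 0.0473). H2-Q9 had a larger value with a wider error, -0.51 ± 0.19, and did not pass (adjusted p = 0.0559); it passed in 6 of 21 alternatives, with adjusted p from 0.000767 to 0.157 over all of them, and the summed H2-Q rows passed (-0.30 ± 0.09, adjusted p = 0.0213). Tap1, Tapbp, Nlrc5, H2-Q7 and Erap1 did not pass. The Tap2 call was lost in 13 of 21 alternatives, among them the removal of any of 10 of the 12 libraries, and the H2-K1 call was lost without Ctrl replicate 1, Ctrl replicate 3 or Dex replicate 1 (adjusted p = 0.09, 0.0692 and 0.0661).

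**Figure D3:**
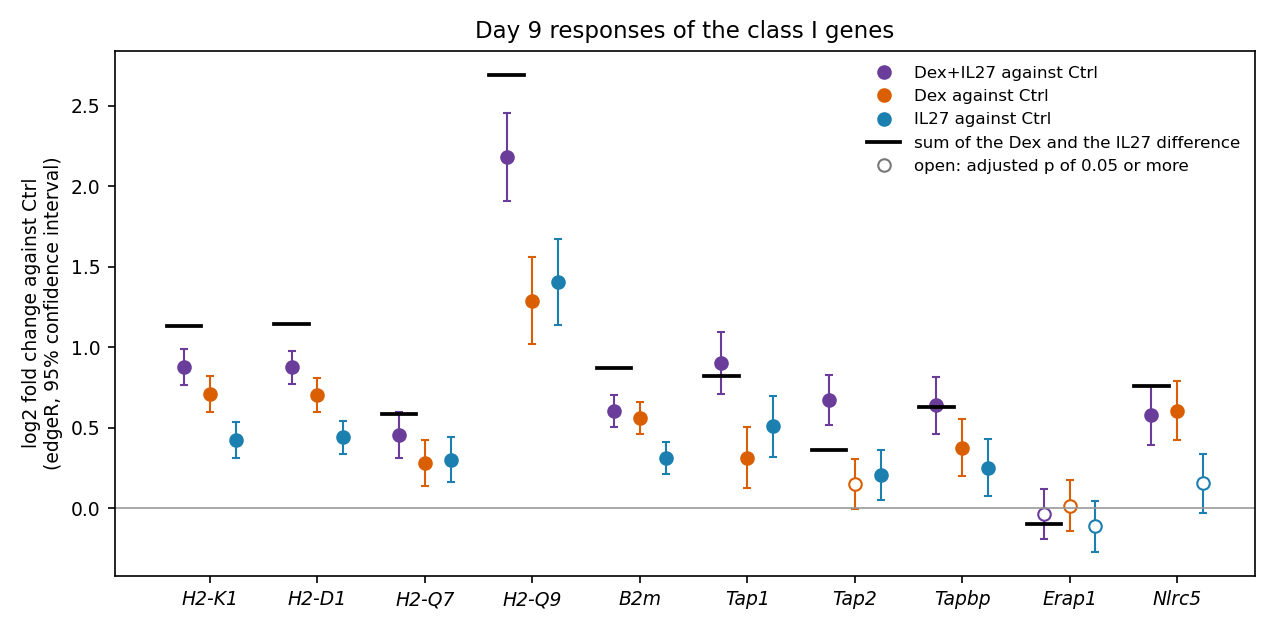
Log2 fold changes against Ctrl at day 9 for the 10 members (edgeR, 95% confidence intervals), with the sum of the Dex and IL27 differences as a black bar beside the Dex+IL27 point. The bar lies above the Dex+IL27 interval for H2-K1, H2-D1, H2-Q9 and B2m, and below it for Tap2. The error of the bar is not drawn, and the edgeR interaction of H2-Q9 did not pass (adjusted p = 0.0559).

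Across the 12 day 9 libraries, the members other than Erap1 varied together. The mean profile of the 10 members, on log2(CPM + 1), correlated with single members at Pearson's r between 0.865 (Tap2) and 0.980 (H2-K1), and with Erap1 at -0.059. Each member is itself part of that profile, which raises its r. Between pairs of members without Erap1, r ran from 0.597 (Tap1 and Nlrc5) to 0.995 (H2-K1 and H2-D1). These values describe 12 libraries that share groups and scaling. H2-K1 and H2-D1 were the closest pair (r = 0.995), followed by H2-K1 and B2m (0.988). Tap1 and Tap2 correlated at 0.928, and Nlrc5 at 0.597 and 0.631 with them but at 0.908 with H2-K1. Among 8605 other genes ranked, the 8 most like the member profile were Gramd3 (r = 0.991), Gimap4 (0.986), Bcl2l11 (0.985), Arhgap26 (0.983), Scml4 (0.981), Pld3 (0.981), Gpnmb (0.978) and Carns1 (0.977). Gimap4, a GTPase gene of lymphocytes, averaged 550 CPM in Dex+IL27, 416 in Dex, 373 in IL27 and 249 in Ctrl cells. Bcl2l11, which encodes the pro-apoptotic protein BIM, averaged 32.8 CPM in Dex+IL27, 20.9 in Dex, 9.52 in IL27 and 2.08 in Ctrl cells.

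The interferon gamma gene itself moved the other way. Ifng had 14.4, 5.98 and 16.2 CPM in Dex+IL27, 5.82, 24.8 and 14.7 CPM in Dex and 58.9, 192 and 199 CPM in IL27 libraries, against 1216, 934 and 861 CPM in Ctrl libraries. Its log2 fold change was -6.04 ± 0.52 with Dex and -2.73 ± 0.43 with IL27 (adjusted p = 2.28e-07 and 7.3e-05), and its r with the member profile was -0.922. Irf1, an interferon-induced factor that binds the interferon-stimulated response element, had 153, 123 and 139 CPM in Dex+IL27 and 51.3, 59.5 and 49.3 CPM in Ctrl libraries, a log2 fold change of 1.41 ± 0.21 (adjusted p = 2.24e-05). With Dex alone Irf1 was at 0.35 ± 0.21 with overlapping libraries and did not pass the test (adjusted p = 0.164). With IL27 alone it was higher by 0.613 ± 0.205 (adjusted p = 0.0186), with 117, 59.6 and 65.5 CPM.

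The signalling list of 20 interferon and IL27 genes, all tested, held 13 higher and 2 lower with Dex, 11 higher and 3 lower with IL27, and 16 higher and 4 lower with both. Irf2, a factor that shares sites with IRF1, was higher by 0.84 ± 0.12 with Dex and by 1.27 ± 0.12 with IL27. Stat2 rose with Dex (0.73 ± 0.08) and was at 0.16 with IL27 (adjusted p = 0.0922). Of 18 interferon-stimulated genes, 5 were higher and 4 lower with Dex, 4 higher and 7 lower with IL27, and 10 higher and 1 lower with both. Of all genes tested, 28.2% were called higher and 27.4% lower with Dex, 29.3% and 28.1% with IL27, and 34.2% and 32.6% with both. The counts of the interferon-stimulated genes with Dex were near these shares. The guanylate-binding proteins Gbp2 and Gbp3 rose with each agent, Gbp2 by 0.97 ± 0.12 with Dex and 1.27 ± 0.12 with IL27. Usp18, which restrains type I interferon signalling, fell with IL27 (-2.00 ± 0.19), and so did Xaf1 (-0.76 ± 0.10).

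The heavy chain genes outside the 10 members mostly rose too. Of 16 tested, 9 were higher and 2 lower with Dex, 12 higher and 0 lower with IL27, and 12 higher and 0 lower with both. Over all genes, 28.2% were called higher and 27.4% lower with Dex, 29.3% and 28.1% with IL27, and 34.2% and 32.6% with both. H2-Q4 rose by 1.12 ± 0.09 with Dex and 1.04 ± 0.09 with IL27, and H2-Q5 by 1.01 ± 0.08 and 1.12 ± 0.08. H2-Q10 had opposite signs, -0.19 with Dex (adjusted p = 0.0485) and 0.82 ± 0.08 with IL27 (adjusted p = 5.34e-07); some of its 38-base stretches occur in H2-Q7. Mr1, which presents vitamin B metabolites to innate-like T cells, rose by 0.86 ± 0.11 with Dex and 0.97 ± 0.11 with IL27.

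Most partners of heavy chain folding and loading were lower. Of 8 such genes, 1 was higher and 6 lower with Dex, 1 higher and 5 lower with IL27, and 1 higher and 6 lower with both, where 27.4%, 28.1% and 32.6% of all genes were called lower in these comparisons. Calr, the lectin chaperone calreticulin of the loading complex, averaged 209 CPM in Dex and 535 CPM in Ctrl cells, a log2 fold change of -1.34 ± 0.09 (adjusted p = 2.39e-08), and fell by 1.21 on the log2 scale with IL27. Pdia3, the loading complex oxidoreductase ERp57, fell by 0.58 with Dex and by 0.78 with IL27. Hspa5, the general endoplasmic reticulum chaperone BiP, fell by 1.07 with Dex and by 0.94 with IL27. Lnpep, an aminopeptidase of endosomal class I presentation, was the 1 gene that rose (0.75 ± 0.09 with Dex, 0.87 ± 0.09 with IL27).

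Most proteasome genes called were lower, where 27.4% of all genes were called lower with Dex, 28.1% with IL27 and 32.6% with both. Of the 5 interferon-inducible subunits and activators, 0 were higher and 3 lower with Dex and likewise with IL27, and 1 (Psmb8, 0.26) was higher and 3 lower with both. The catalytic subunit gene Psmb10 fell by 0.65 with Dex, and the PA28 activator genes Psme1 and Psme2 by 0.24 and 0.29 (adjusted p = 0.0025 and 0.0015). Psmb9, whose gene neighbours Tap1, was at -0.11 ± 0.07 with Dex (adjusted p = 0.211). Of the 5 constitutive counterparts, 4 were lower and 0 higher with each agent, and 4 lower and 1 higher with both: Psmb5 fell by 0.91 with Dex and by 0.91 with IL27, and Psmb7 by 1.05 and 0.82. The interaction was positive for Psmb10 (0.67 ± 0.16) and Psmb5 (0.60 ± 0.12), whose falls were thus smaller than the summed single differences.

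The factors that bind the SXY element with NLRC5 gave a mixed picture. Of 8 tested, 3 were higher and 2 lower with Dex, near the shares over all genes (28.2% higher, 27.4% lower). Rfx5 was higher with Dex (0.63 ± 0.19) and IL27 (0.81 ± 0.19), Nfyb was higher with Dex (0.40 ± 0.08) and IL27 (0.50 ± 0.08), and Nfyc was lower with Dex (-1.15 ± 0.12) and IL27 (-1.51 ± 0.12). Ciita, the class II relative of Nlrc5, averaged 0.372 CPM or less in every day 9 group and was not tested.

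**Figure D4:**
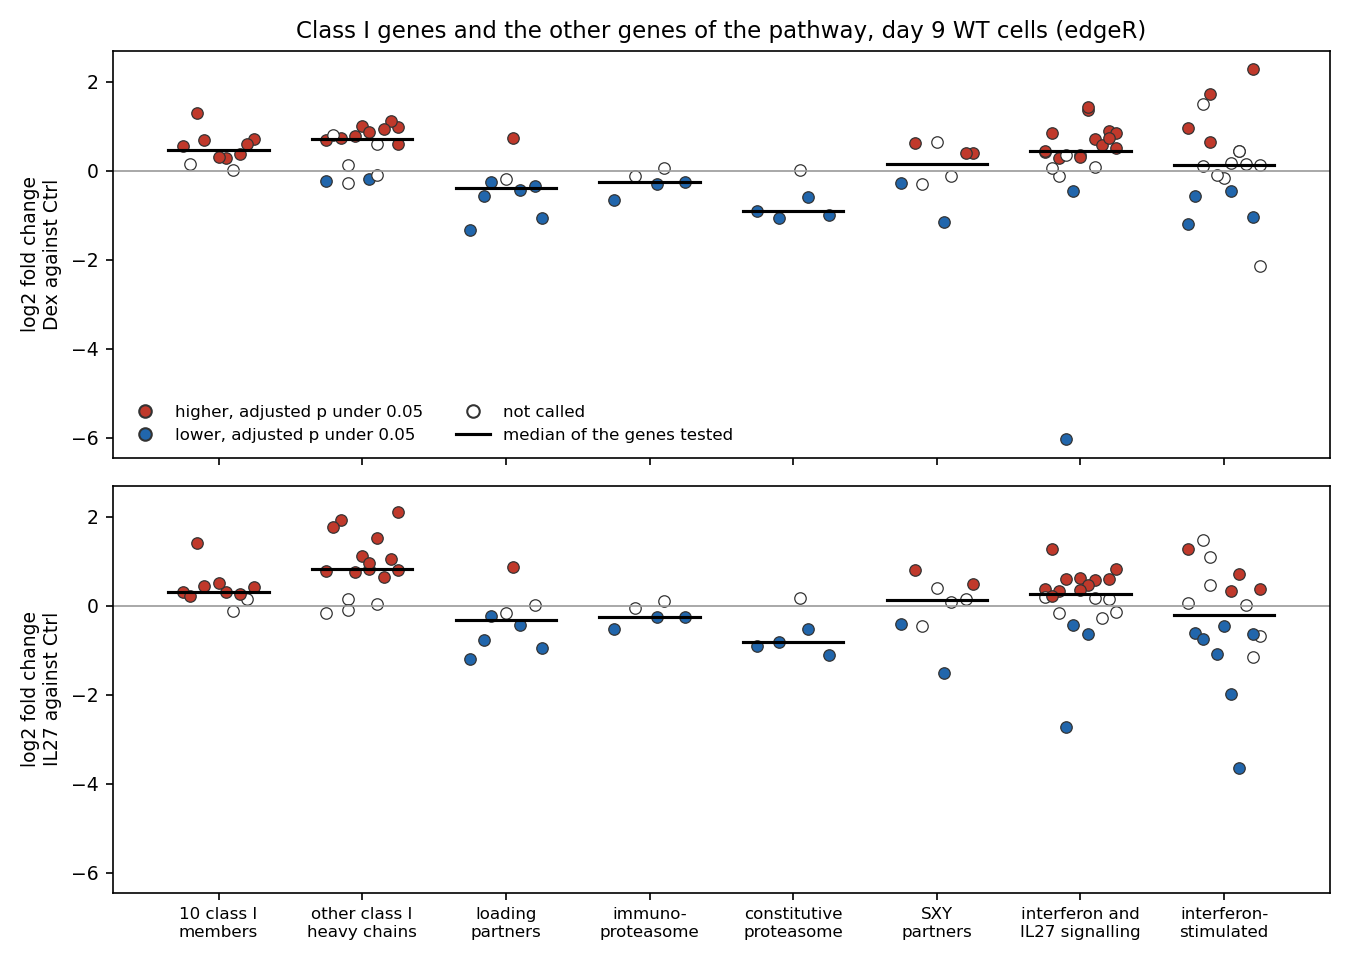
Log2 fold changes at day 9 (edgeR) of the 10 members and of the tested genes in 7 lists of the pathway, for Dex against Ctrl (top) and IL27 against Ctrl (bottom), 1 point per gene with list medians. The medians of the members (0.47 and 0.31) and of the other heavy chains (0.71 and 0.81) lie above 0, and those of the loading partners and both proteasome lists lie below 0.

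At day 3 in WT cells, 0 of the 10 members passed the test of Dex, where 9.43% of all 11967 genes tested did, 4.93% higher and 4.5% lower; DESeq2 and limma also called 0 members, and 2 members had an unadjusted p under 0.05. Those 2 members were Nlrc5 and H2-D1. Nlrc5 had 101, 109 and 103 CPM in WT Dex and 99.5, 87.1 and 94.4 CPM in WT Ctrl cells, without overlap, a log2 fold change of 0.17 ± 0.07 (adjusted p = 0.117). H2-D1 had 2065, 2110 and 2081 CPM in WT Dex and 2042, 1967 and 1918 CPM in WT Ctrl cells, also without overlap, a log2 fold change of 0.09 ± 0.04 (adjusted p = 0.215). H2-Q7 and B2m did not overlap either but were lower in WT Dex cells, by -0.16 ± 0.09 and -0.07 ± 0.04 (adjusted p = 0.294 and 0.402). The 95% interval of H2-K1 was -0.014 to 0.163, so a change of the size seen at day 9 lies outside it; the 2 days were not tested against each other. Ifng fell at day 3 as well, to between 1.56 and 11.3 CPM in WT Dex libraries, against 204 to 288 CPM in WT Ctrl libraries (-5.22 ± 0.29, adjusted p = 2.13e-09). Other genes of the pathway were called: of the 8 loading partners 0 were higher and 3 lower (Tapbpl, -0.46 ± 0.08; Hspa5, -0.30 ± 0.06; Canx, -0.15 ± 0.04), and of the 16 other heavy chains H2-Q10 was higher (0.45 ± 0.11) and H2-T23 lower (-0.30 ± 0.06). Psme2 (-0.21 ± 0.05) and Psmb6 (-0.22 ± 0.05) were the proteasome genes called. Of all genes called, 52.3% were higher, and 42.3% under scaling by library totals.

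In cKO cells, Dex changed 0 of the 10 members and 0% of all genes by the test (DESeq2 and limma also called 0 genes; 399 genes and 1 member, Tapbp, had an unadjusted p under 0.05). The genotype by Dex interaction passed for 0 members, where 2.95% of all genes were called, 1.38% positive and 1.57% negative; Nlrc5 had the lowest p among the members (-0.23 ± 0.09, adjusted p = 0.235). Ifng averaged 162 CPM in cKO Dex and 210 CPM in cKO Ctrl cells.

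Of the 10 members, only H2-Q7 and H2-Q9 passed the test of genotype. H2-Q7 had 215, 211 and 178 CPM in cKO Ctrl libraries, against 119, 120 and 130 CPM in WT Ctrl libraries. With Dex it had 224, 211 and 180 CPM in cKO and 114, 115 and 97.8 CPM in WT libraries. All 6 cKO libraries lay above all 6 WT libraries, and cKO replicate 6 was the lowest cKO library in both treatments. The log2 fold changes were 0.72 ± 0.09 in Ctrl cells (adjusted p = 0.000333) and 0.91 ± 0.09 in Dex cells (adjusted p = 2.37e-06).

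H2-Q9 had 307, 274 and 301 CPM in cKO Ctrl and 199, 194 and 184 CPM in WT Ctrl libraries. In Dex cells it had 292, 278 and 294 CPM in cKO and 190, 186 and 190 CPM in WT libraries. Again no library overlapped, and the log2 fold changes were 0.62 ± 0.05 (adjusted p = 6.94e-06) and 0.61 ± 0.05 (adjusted p = 6.1e-07). H2-Q7 and H2-Q9 were the 2 of 10 members called, both higher in cKO cells, where 2.36% of all genes were called in Ctrl cells (1.38% higher, 0.986% lower) and 6.9% in Dex cells (3.63% higher, 3.28% lower). In Ctrl cells 58.3% of the genes called were higher, and 35.3% under scaling by library totals. Over 21 alternatives the log2 fold change of H2-Q9 in Ctrl cells stayed between 0.58 and 0.67, and all 4 calls held.

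Some neighbouring copies shifted in the same direction. H2-Q4 (0.40 ± 0.08), H2-Q5 (0.48 ± 0.11) and H2-Q8 (0.70 ± 0.14) were higher in cKO Ctrl cells, the 3 of 16 other heavy chain genes called, where 1.38% of all genes were called higher. The other 13 did not pass the test. All 3 were also higher in cKO Dex cells. There 6 of the 16 were called higher and 0 lower, where 3.63% and 3.28% of all genes were. The 9 H2-Q rows together held 862, 811 and 763 CPM in cKO Ctrl and 553, 543 and 527 CPM in WT Ctrl libraries, a log2 fold change of 0.60 ± 0.06 (adjusted p = 1.19e-05). H2-Q7 made up 23.4% to 26.0% of that sum in cKO Ctrl and 21.5% to 24.6% in WT Ctrl libraries, with overlap. In Dex cells that share was 26.1%, 25.5% and 23.8% in cKO and 21.9%, 21.3% and 19.6% in WT libraries, without overlap, and the sum was higher in cKO cells by 0.64 ± 0.06 (adjusted p = 4.47e-07), less than H2-Q7 alone. The classical genes H2-K1 (0.06 ± 0.05, 95% interval -0.028 to 0.148) and H2-D1 (0.02 ± 0.04) and B2m (-0.01 ± 0.04) did not pass the test in Ctrl cells, and their libraries overlapped. Nlrc5 had lower values in all 3 cKO Dex libraries (92.0 to 95.7 CPM) than in the WT Dex libraries (101 to 109 CPM), a difference of -0.16 that did not pass (adjusted p = 0.186). The Q region differs between mouse strains. Whether the cKO and WT animals carried the same chromosome 17 haplotype is not stated beyond the shared C57BL/6 label. Only the cKO cells carried E8i-Cre. The receptor deletion, the Cre transgene and a sequence difference in the Q region therefore cannot be told apart for these genes.

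**Figure D5:**
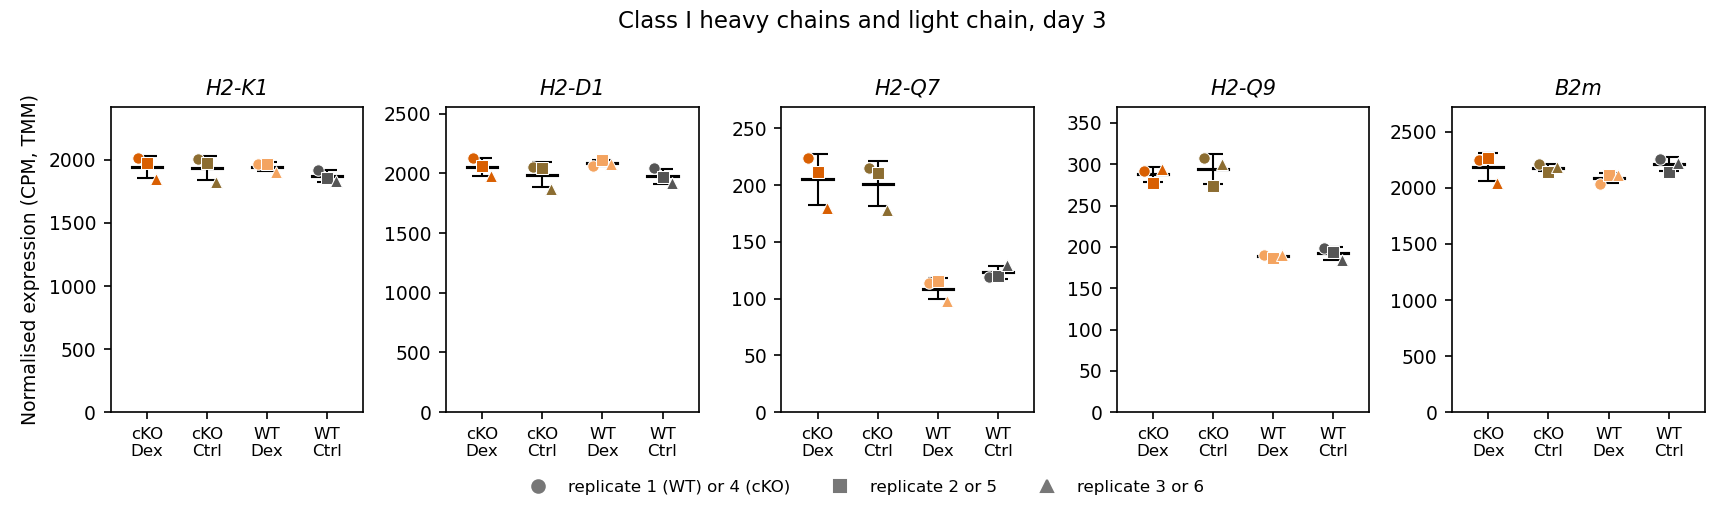
Normalised expression (CPM after TMM scaling) of the heavy chain genes and B2m in each day 3 library, with group means and SD (n = 3). H2-Q7 and H2-Q9 are higher in all 6 cKO than in all 6 WT libraries with and without Dex, and H2-K1, H2-D1 and B2m overlap between genotypes.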

How the data were processed

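RNA from 24 libraries of sorted CD8+ T cells was read as paired 38-nt fragments after SMART-Seq2 amplification (11 cycles, no molecular identifiers). The authors deposited a table of estimated counts per gene and a table of FPKM values normalised across libraries, both deposited with 23366 genes. TopHat, RSEM, DESeq and the mouse build mm9 are named in the submitters' processing notes, without roles; versions are not given in the sources used here.

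Estimated counts were rounded to whole numbers and fitted per day, 12 libraries together, with TMM scaling and edgeR 4.0.16 (R 4.3.3; quasi-likelihood test, prior count 0.125) after a filter on low counts (minimum 10, total 15), which left 11967 genes at day 3 and 12320 at day 9. Benjamini-Hochberg adjusted p-values below 0.05 over all genes tested were called. CPM are TMM-scaled; FPKM served for levels between genes. Alternatives used DESeq2 1.42.0, limma 3.58.1 on log2(FPKM + 1) and log2(FPKM + 0.1), other scalings, no filter, only the groups compared, no Rn45s, summed H2-Q rows, a block for the replicate number, and fits that lacked 1 library at a time. The fits were tested on simulated data. Plots used Python 3.11.15 with matplotlib 3.10.9.

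The 10 members and the gene lists were chosen with earlier results of these data known. Named list genes were, per list, up to 4 genes with the lowest p in the Dex, IL27, interaction and cKO comparisons, together with Nr3c1, Tsc22d3, Irf1, Ifng and the 8 genes most like the mean member profile (mean of at least 10 CPM in a day 9 group). Ciita, the class II genes and the cell type markers fall outside that rule and were named after their values were seen. Some items are not reported here. Of the list genes, 1 (Adgre1) was not found by symbol. Promoter windows are from RefSeq (GRCm38.p6) and gene overlaps from GENCODE M21 (GRCm38); no coordinate was converted from mm9.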

Additional observations from a re-analysis of the deposited data

Results flagged for a closer look

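At day 9 the response to Dex differed with and without IL27 for 4 of the 10 members, by the test of the difference itself (edgeR interaction, log2 scale), where 28.5% of all genes were called. The value was -0.2585 for H2-K1 (adjusted p = 0.0258), -0.27 for H2-D1 (adjusted p = 0.0146) and -0.267 for B2m (adjusted p = 0.0115), so the Dex difference of these 3 genes was smaller with IL27 present. For Tap2 it was 0.3142 (adjusted p = 0.0473), a larger Dex difference with IL27 present. The calls of H2-D1 and B2m held in all 21 alternatives, that of H2-K1 was lost in 4 and that of Tap2 in 13. With 3 libraries a group, no library was tested for standing apart within its group.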

How the results depend on the processing

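Of 2380 values of single members under an alternative, 2310 were the same, 56 lost the call, 11 gained one, 3 moved and 0 reversed. The same means on the same side of the threshold, with the sign kept or, for uncalled values, a change of sign within the SE. Moved values were uncalled and changed sign by more than the SE. A change of sign was counted as reversed only where either fit made a call. Members called higher with Dex+IL27 than with Dex numbered 6; they were 3 under library totals, 3 by limma on FPKM without a filter and 3 to 7 with a library left out. For the Dex by IL27 interaction, 4 members were called, 2 by limma without a filter and 2 to 4 with a library left out. Over all genes, the calls for cKO Ctrl against WT Ctrl (283) became 793 without the low-count filter, 533 by DESeq2, 101 by limma without a filter and 63 to 513 with a library left out. The genotype by Dex interaction (353) became 765, 556, 185 and 224 to 479 in the same order. Leaving out a library gave 691 to 1345 calls for WT Dex at day 3 (1129), 484 to 1186 for cKO Dex against WT Dex (826) and 0 to 1 for cKO Dex against cKO Ctrl (0); the last became 26 without the filter and 1 with only the groups compared. Libraries with the same replicate number did not all deviate together: correlations of deviations ran from -0.022 to 0.182 at day 3 (1 of 6 over 0.1) and from -0.179 to 0.304 at day 9 (4 of 18), and all 3 cKO pairs were positive (0.045 to 0.182). Since not every pair was over 0.1, the numbers were not taken to pair the samples. With the replicate block, 1 member was called for WT Dex at day 3 (H2-D1, 0.09, adjusted p = 0.0397) and 1 gene for cKO Dex against cKO Ctrl, and the H2-Q9 interaction was called (-0.48, adjusted p = 0.0445). The causes were not tested. Each member had at least 1206 counts in each library. These are reads of amplified material without molecular identifiers, so the error of sampling RNA molecules was not measured. The precision is limited by 3 libraries a group and by shared reads among the heavy chain genes.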

Other observations

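MHC class II genes, which activated mouse T cells express little, were not all silent at day 9. H2-Ab1, a class II beta chain, had 189, 200 and 211 CPM in Dex+IL27, 91.5, 60.1 and 67.2 CPM in Dex, 226, 76.8 and 122 CPM in IL27 and 30.7, 36.0 and 33.1 CPM in Ctrl libraries. The IL27 libraries were far apart, with replicate 1 the highest, and all lay above the Ctrl libraries. The log2 fold changes over Ctrl were 2.63 with Dex+IL27, 1.15 with Dex and 2.11 with IL27 (edgeR, adjusted p = 1.03e-06, 0.00284 and 1.48e-05). Its alpha chain partner H2-Aa stayed at or below 0.519 CPM and was at 0 in 5 of 24 libraries. Cd74, the invariant chain, averaged 2.09 CPM in Dex+IL27 and 7.09 CPM in Ctrl cells, a log2 fold change of -1.72.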
